A study of Homo sapiens with 4 samples.

Results

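NACC1, NELFA, XAB2, CHLSN, CCDC50 and SGCZ are genes with high peaks in the control pull-down of this series, in which probes against the bacterial LacZ mRNA were used, and with no peak in the ZNF609 pull-downs. The first 5 led the genes found with LacZ probes alone when genes were ordered by their lowest p-value, and SGCZ was added because it took the second largest share of LacZ reads in peaks. They are 6 of the 958 annotated genes that a peak of any list overlapped, and of the 511 genes that a LacZ peak overlapped. The members were thus chosen by their LacZ reads, p-values and ranks and by their lack of even and odd peaks, and those values are given as a description, without a test.

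The cells were RD, an established human line of embryonal rhabdomyosarcoma, a tumour with features of immature skeletal muscle. RNA was captured with biotinylated antisense probes in 3 pull-downs: an even and an odd probe set, both against exon 2 of ZNF609, and the LacZ set. The labels name the even and odd pull-downs, called ZNF609 pull-downs here, after circZNF609, a circular RNA of that gene. A sample of total lysate belongs to the series and was not analysed here. Each pull-down was sequenced as 1 library, so the values below have no replicates, and pull-downs were not tested against each other.

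In such a capture, biotin-labelled DNA probes pair with a chosen RNA, and beads that bind biotin draw out the probes with all that is attached. Splitting the probes into independent sets lets RNA brought down by 1 set through its own sequence be told from RNA brought down by both. Human cells have no LacZ mRNA, so the LacZ pull-down serves as a control for background capture. Whether the LacZ probes pair with human RNA was not examined.

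The even list held 502 peaks with 482418 reads, the odd list 542 peaks with 279415 reads, and the LacZ list 722 peaks with 219401 reads. Each peak is a run of bins of 170 bases, and its height is the number of reads per bin, unscaled to library size. The median height was 293 reads per bin for even peaks, 221.5 for odd peaks and 115 for LacZ peaks. The depth of the libraries beyond their peaks is unknown, so heights were ranked within a list and not compared between lists. Of 13 muscle and rhabdomyosarcoma marker genes, 5 had an even peak, 3 an odd peak and 2 a LacZ peak. Over all 20050 annotated protein-coding genes, 1.54% had an even peak, 1.64% an odd peak and 2.22% a LacZ peak. DES, TNNT1, TNNT2, ACTC1 and CDH15 were the markers with a peak, while MYOD1 and MYOG, which define the myogenic lineage, had none in any list.

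Of the 14 LacZ peaks in the 6 genes, 1 overlapped a miRNA hairpin and 1 an annotated promoter window, and these sequences are shown because they lie in part under captured RNA. A NELFA peak at chr4:1986281-1986450 covered 67 of the 94 bases of the hairpin of microRNA 943, at chr4:1986384-1986477 on the minus strand, including its whole mature miRNA at chr4:1986403-1986423. Capitals mark the bases under the peak in the hairpin and the seed, bases 2 to 8, in the mature miRNA. The sequences are those of RefSeq on GRCh38.p14.
microRNA 943 hairpin: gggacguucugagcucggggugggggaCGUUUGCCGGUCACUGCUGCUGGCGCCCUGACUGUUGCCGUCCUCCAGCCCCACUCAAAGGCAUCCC
hsa-miR-943: cUGACUGUugccguccuccag

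A peak is 170 bases wide at least, longer than the hairpin, so reads of the NELFA transcript and of the miRNA precursor inside it could not be told apart. In the LacZ list 4 of 722 peaks (0.554%) overlapped an annotated miRNA hairpin, against 1 of 502 even peaks (0.199%) and 0 of 542 odd peaks.

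A CHLSN peak at chr7:1028161-1028330 began 39 bases downstream of an annotated start site inside the gene. The window around that site, at chr7:1028320-1028619 on the minus strand, holds 250 bases before the start and 50 from it, and its last 11 bases, in capitals, lay under the peak.
CHLSN promoter window: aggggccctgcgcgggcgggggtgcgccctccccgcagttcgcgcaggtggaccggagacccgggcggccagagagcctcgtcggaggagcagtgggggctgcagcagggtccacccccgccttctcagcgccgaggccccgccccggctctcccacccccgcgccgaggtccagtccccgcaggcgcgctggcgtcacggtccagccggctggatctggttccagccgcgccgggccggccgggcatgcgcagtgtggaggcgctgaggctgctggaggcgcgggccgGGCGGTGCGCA

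G and C made up 78.7% of that window, against a median of 58.7% over the 35116 promoter windows of the table. Of all peaks, 6 even (1.2%), 16 odd (2.95%) and 19 LacZ peaks (2.63%) overlapped a promoter window, and 1 of the 14 member peaks did. NELFA, XAB2, CHLSN and NACC1 have a promoter window in the table, and the windows at the annotated starts of NACC1, NELFA and XAB2 were met by 0 peaks of the 3 lists.

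Together the 6 genes had 0 even, 0 odd and 14 LacZ peaks, the last covering 4250 bases. The absence of even and odd peaks is shared by most genes of the control list: 354 of the 511 genes with a LacZ peak (69.3%) had neither. With each peak given to a single gene this was 302 of 446 genes (67.7%). These 14 peaks were 1.94% of the LacZ peaks and held 20506 reads, 9.35% of the LacZ reads in peaks (exact Clopper-Pearson 95% interval 9.22 to 9.47). Reads are not independent molecules, so this interval and the others cover counting error alone. Among LacZ peaks with p-values under 0.001 the share was 14.6%. The members' median height was 527.6 reads per bin, with a range of 206 to 2203, and each of the 14 peaks lay above the LacZ median. By reads per bin 11 of the 14 ranked among the first 50 of 722, and by p-value 13 did.

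**Figure D1:**
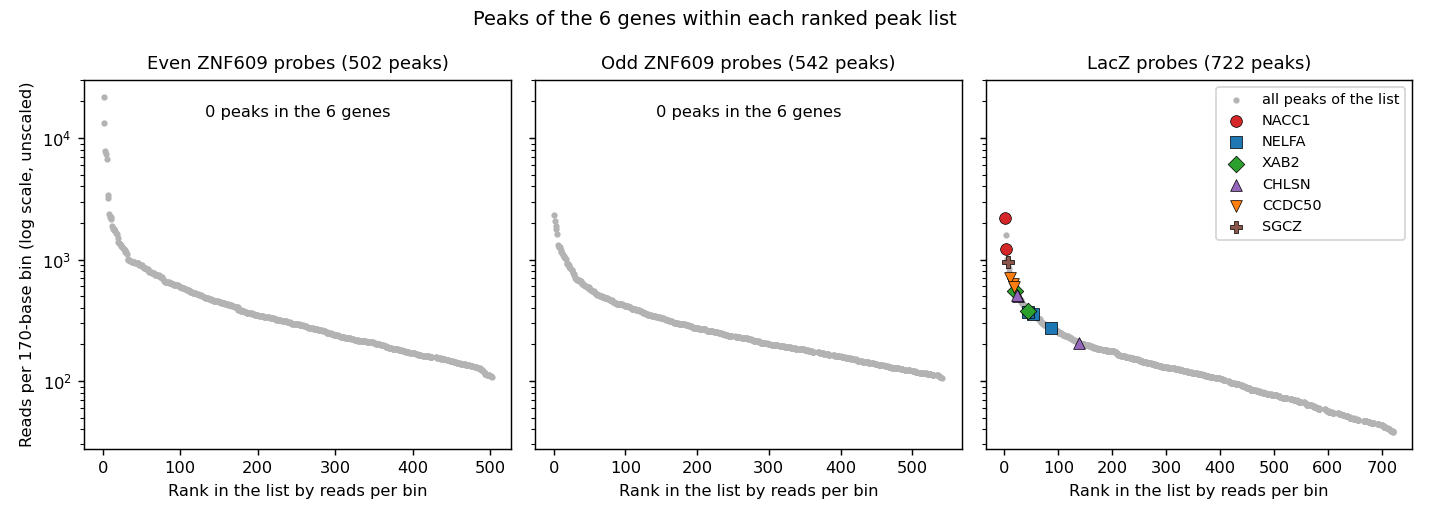
Reads per bin of 170 bases (log scale, unscaled) against the rank of each peak in the even, odd and LacZ lists, with grey points for all peaks and coloured symbols for peaks in the 6 genes. The 14 LacZ peaks of the 6 genes run between rank 1 and rank 139, and the even and odd panels hold 0 peaks in these genes.

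NACC1 encodes a BTB domain protein that acts as a transcription regulator in the nucleus. The gene (gene ID 112939) spans chr19:13116852-13141147. It had 0 even and 0 odd peaks and 2 LacZ peaks. The higher one, at chr19:13138111-13138620, had 2203 reads per bin over 3 bins, rank 1 of 722 by reads per bin, and its p-value was listed as 0, as it was in 3 LacZ peaks. The second, at chr19:13137261-13137600, had 1226.5 reads per bin, rank 3, with a p-value of 5.00e-16. They lay 510 bases apart. NACC1 took 9063 reads, 4.13% of the LacZ reads in peaks (4.05 to 4.21), more than any other gene of that list. The even peak nearest to the gene was 912923 bases away and the odd peak nearest to it 163871 bases away.

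SGCZ encodes zeta-sarcoglycan, a membrane protein of the sarcoglycan group that joins the dystrophin complex in muscle. It is the longest of the 6 genes, with a span of 1153587 bases (gene ID 137868, chr8:14084845-15238431), and it had 0 even, 0 odd and 1 LacZ peak. That peak, at chr8:15141731-15142410, was the widest of the 14, with 4 bins, 960.5 reads per bin, rank 6, and a p-value of 5.18e-09. It held 3842 reads, 1.75% of the LacZ reads in peaks (1.70 to 1.81), the second largest share of any gene. The peak covered 0.0589% of the gene span. All 4 of its bins carried a fixed value in the deposited score, described further on, and without peaks over such bins SGCZ had 0 LacZ peaks.

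CCDC50 encodes a coiled-coil protein that binds ubiquitin and has been linked to inherited hearing loss. The gene (gene ID 152137) spans chr3:191329394-191398659. It had 0 even and 0 odd peaks and 3 LacZ peaks of similar height. At chr3:191361011-191361180 there were 709 reads per bin (rank 11, p-value 4.44e-08). At chr3:191357951-191358290 there were 624 (rank 15, p-value 1.31e-10), and at chr3:191369851-191370020 there were 597 (rank 17, p-value 5.78e-08). The peaks lay 2720 and 8670 bases apart, and together they held 2554 reads, 1.16% of the LacZ reads in peaks (1.12 to 1.21).

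CHLSN, known earlier as C7orf50, encodes cholesin, described as a gut hormone that acts on cholesterol synthesis. The gene (gene ID 84310) spans chr7:977964-1138257 and contains several other annotated genes, none of which its peaks overlapped. It had 0 even and 0 odd peaks and 3 LacZ peaks. The highest, at chr7:1009801-1010310, had 505.7 reads per bin (rank 24, p-value 3.48e-07), and the one at chr7:1000451-1000620 had 496 (rank 26, p-value 2.26e-11). The peak near the inner start site had 206 reads per bin (rank 139, p-value 0.000656) and was the lowest of the 14. CHLSN held 2219 reads, 1.01% of the LacZ reads in peaks (0.970 to 1.05). The hairpin of microRNA 339, which also lies in CHLSN, was 5134 bases from the nearest LacZ peak.

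XAB2 encodes a protein that binds the repair factor XPA and takes part in splicing and transcription-coupled repair. The gene (gene ID 56949) spans chr19:7619525-7629545 and is the shortest of the 6, with 10021 bases. It had 0 even and 0 odd peaks and 2 LacZ peaks 170 bases apart, which is 1 bin. At chr19:7619741-7620080 there were 549.5 reads per bin (rank 19, p-value 1.55e-07), and at chr19:7620251-7620420 there were 374 (rank 43, p-value 7.66e-13). The peak with fewer reads thus had the lower p-value. XAB2 held 1473 reads, 0.671% of the LacZ reads in peaks (0.638 to 0.706).

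NELFA encodes a subunit of the negative elongation factor, which holds RNA polymerase II paused soon after it starts a transcript. The gene (gene ID 7469) spans chr4:1982723-2008974. It had 0 even and 0 odd peaks and 3 LacZ peaks, of 372 reads per bin at chr4:1989681-1989850 (rank 44, p-value 2.43e-13), 354 at chr4:1987811-1988150 (rank 52, p-value 9.41e-13) and 275 at the miRNA hairpin (rank 86, p-value 3.61e-10). NELFA ranked higher by p-value, where its best peak was at 7 of 722, than by reads per bin. Its 1355 reads were 0.618% of the LacZ reads in peaks (0.585 to 0.651), the smallest share among the 6 genes in the deposited list. Without peaks over bins at the fixed value of the score, NACC1 held 5.43% of the LacZ reads, CCDC50 2.10%, CHLSN 1.65%, NELFA 1.11%, XAB2 0.307% and SGCZ 0.

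**Figure D2:**
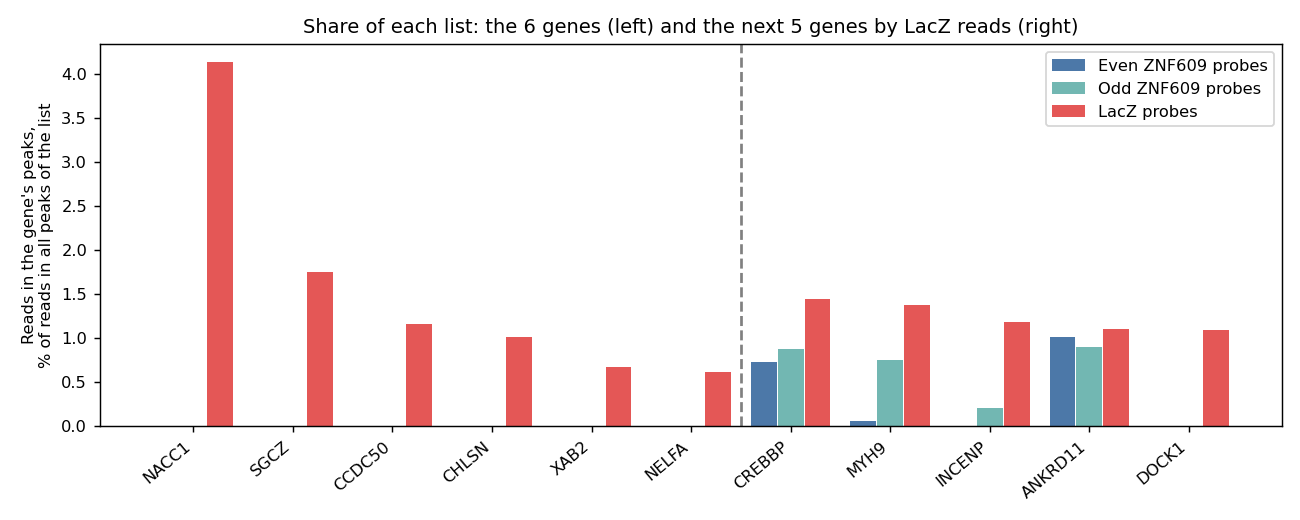
Reads in the peaks of a gene as a percentage of the reads in all peaks of the same list, for the 6 genes on the left and the next 5 genes by LacZ reads on the right, with bars for even, odd and LacZ probes. NACC1 reaches 4.13% in the LacZ list and 0 in the others, whereas CREBBP, MYH9 and ANKRD11 have bars in each list.

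The choice of these 6 genes left out others with values close to theirs. By p-value, the next protein-coding genes with LacZ peaks alone were PDE4B (p-value 4.64e-10, 792.5 reads per bin), PPP1R26 (1.22e-08, 339), PTK2 (2.18e-08, 257) and CIC (7.50e-08, 196), each with 1 peak. PDE4B, a phosphodiesterase gene, stood before SGCZ (5.18e-09) in that order and after CCDC50 (1.31e-10). The microRNA 943 gene, whose peak is the NELFA peak shown above, stood between them at 3.61e-10. By reads in peaks, the next genes were CREBBP with 0.734% of even, 0.873% of odd and 1.45% of LacZ reads, MYH9 with 0.0651%, 0.754% and 1.38%, INCENP with 0 even, 0.212% odd and 1.18% LacZ, ANKRD11 with 1.02%, 0.896% and 1.10%, and DOCK1 with 0 even, 0 odd and 1.09% LacZ. DOCK1 had 5 LacZ peaks, all over bins with the fixed value of the score. NELFA, XAB2 and CHLSN each held a smaller share of the LacZ reads than each of these 5 genes.

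Among the 20 highest LacZ peaks by reads per bin, 7 lay in the 6 genes, 5 in other genes with LacZ peaks alone, 5 in genes with an even or odd peak and 3 outside annotated genes. Each of the 5 in genes with an even or odd peak was overlapped by both an even and an odd peak. These lay in CREBBP, PTMS, ENAH, LNX2 and AVPI1. The highest LacZ peaks thus included places listed in both ZNF609 pull-downs and places listed with LacZ probes alone.

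More than 1 LacZ peak was found in 5 of the 6 genes, against 145 of the 511 genes with a LacZ peak (28.4%). A choice by the lowest p-value of a gene favours genes with more peaks, so this count is a description. The 291 other protein-coding genes with LacZ peaks alone had a median of 1 peak and at most 6, and 19 of them had 3 or more. Their highest peak had a median of 116.3 reads per bin, and their median share of LacZ reads was 0.0770%. Gene length did not set the 6 apart in 1 direction: NACC1, NELFA and XAB2 were shorter than the median of 46983 bases over those 291 genes, and CCDC50, CHLSN and SGCZ were longer. Peaks wider than 1 bin made up 7 of the 14 member peaks, against 53.0% of all LacZ peaks, a share near the background.

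The place of the peaks along the gene was not used in choosing the genes, though it was looked at with the values known. It could be read for NACC1, NELFA, XAB2 and CHLSN, whose strand the promoter table gives. Their 10 LacZ peaks lay between 68.6% and 96.1% of the way from the annotated 5′ to the 3′ end of the gene span, with a median of 85.3%. The lowest value, 68.6%, is the CHLSN peak that began 39 bases downstream of an annotated start site inside the gene. In a transcript from that site this peak would lie near the 5′ end, and the other CHLSN peaks less far along than in the gene span. Which start the captured CHLSN RNA had was not examined. CCDC50 did not share this place. Its peaks began 28557 to 40457 bases into a span of 69266 bases, which is below 68.6% of the way on either strand. Whether the SGCZ peak lay near the 3′ end depends on its strand, which was not given. The 493 LacZ peaks in 335 other protein-coding genes of known strand had a median of 66.6% and quartiles of 37.7% and 84.9%. For comparison, the median was 62.0% over 372 even and 69.0% over 440 odd peaks. With the highest peak of each gene alone, which was tried after seeing the data, the medians were 84.3% over the 4 genes and 64.3% over the others. Peaks of a gene share its transcript, so the 10 peaks are 4 genes and not 10 independent places, and no test was made.

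In bases, the XAB2 peaks ended 216 and 726 bases before the 3′ end of the gene. Those of NACC1 lay 2527 and 3547 bases before it, and those of NELFA 3558, 5088 and 6958 bases. The CHLSN peaks lay 22487 to 50197 bases from the 3′ end, inside a longer gene. The annotation used gives gene spans without exons, and peaks were not placed in exons, introns or untranslated regions. For CCDC50 and SGCZ the place is given from the ends of the span alone. The CCDC50 peaks began 28557, 31617 and 40457 bases above its lower end, and the SGCZ peak ended 96021 bases below its upper end.

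**Figure D3:**
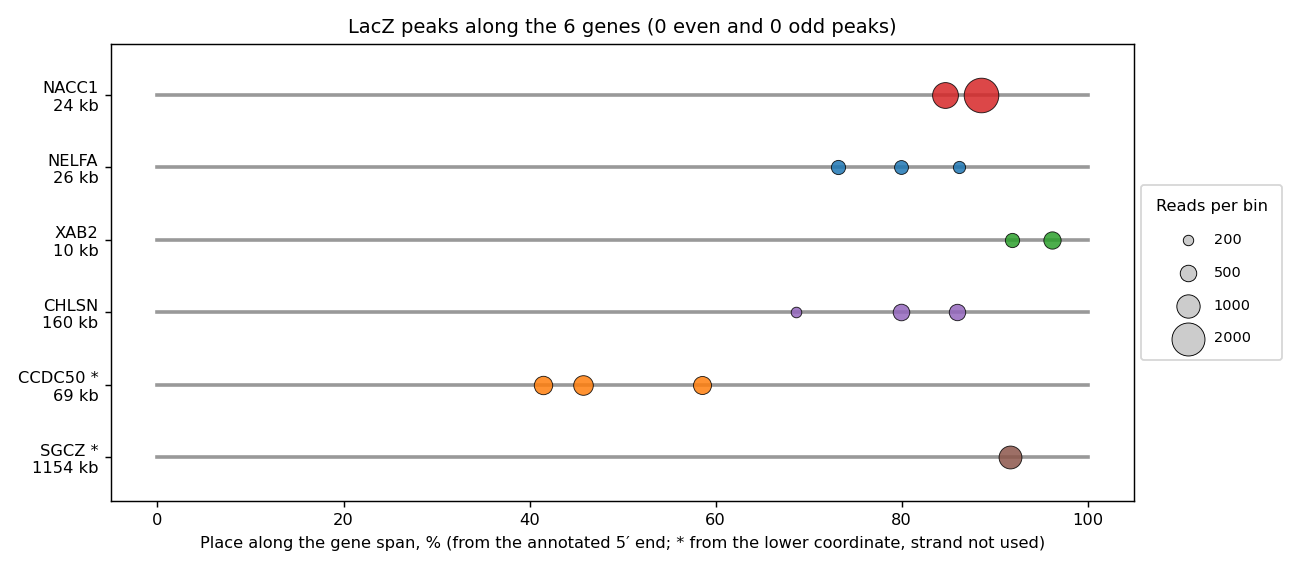
LacZ peaks along the span of each of the 6 genes, as a percentage of its length from the annotated 5′ end, or from the lower coordinate for the 2 genes with an asterisk, with the area of a point set by its reads per bin. The peaks of NACC1, NELFA, XAB2 and CHLSN sit between 68.6% and 96.1%, and those of CCDC50 nearer the middle of its span.

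The deposited lists carry an unnamed score in column 8, which is a whole multiple of 1/4434 in each bin, except for bins that hold a fixed value of 0.01. Bins with the fixed value lay under 4 of the 14 member peaks, a share near the 23.4% of all LacZ peaks. These were the SGCZ peak, the XAB2 peak of 549.5 reads per bin, the CHLSN peak near the inner start site, and the NACC1 peak of 1226.5, in which 1 of 2 bins held it. Outside those bins the score differed between the genes. NELFA peaks were at 1 or 2 steps, the other XAB2 peak at 3, NACC1 at 7 and 19.7, CHLSN at 20 and 27.3, and CCDC50 at 32, 45 and 51. The median over LacZ peaks without the fixed value was 11 steps, against 10 in both other lists.

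The score went with the height that the lowest listed peaks had. Among LacZ peaks of 1 bin within 5 steps of the NELFA bins, the lowest had 38 reads, and within 5 steps of the highest CCDC50 bin it had 123. The NACC1 peak of 2203 reads per bin was in bins where listed peaks began at 55 reads, and the CHLSN peak of 206 in a bin with the fixed value, where they began at 107. By reads per bin the 3 CCDC50 peaks ranked 11, 15 and 17 and the 3 NELFA peaks 44, 52 and 86, whereas by p-value the CCDC50 peaks ranked 29, 15 and 31 and the NELFA peaks 7, 9 and 16, in the same order of peaks.

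The same view gives what an absent even or odd peak could hide. In bins like those of NELFA, the lowest listed peak had 108 even reads and 105 odd reads, and in bins like the highest of CCDC50 it had 374 even and 365 odd reads. For bins with the fixed value, like those of SGCZ, it had 336 even and 300 odd reads. These are the lowest of few listed peaks, 9 even and 9 odd for CCDC50 and 15 even and 7 odd for SGCZ. They are not the limit of the caller, and whether a bin has the same score in each list was not checked. A gene with fewer reads in each bin could have no peak, so 0 peaks in the even and odd lists does not mean 0 reads. No ratio between the LacZ pull-down and the ZNF609 pull-downs can be formed for these genes from the lists.

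**Figure D4:**
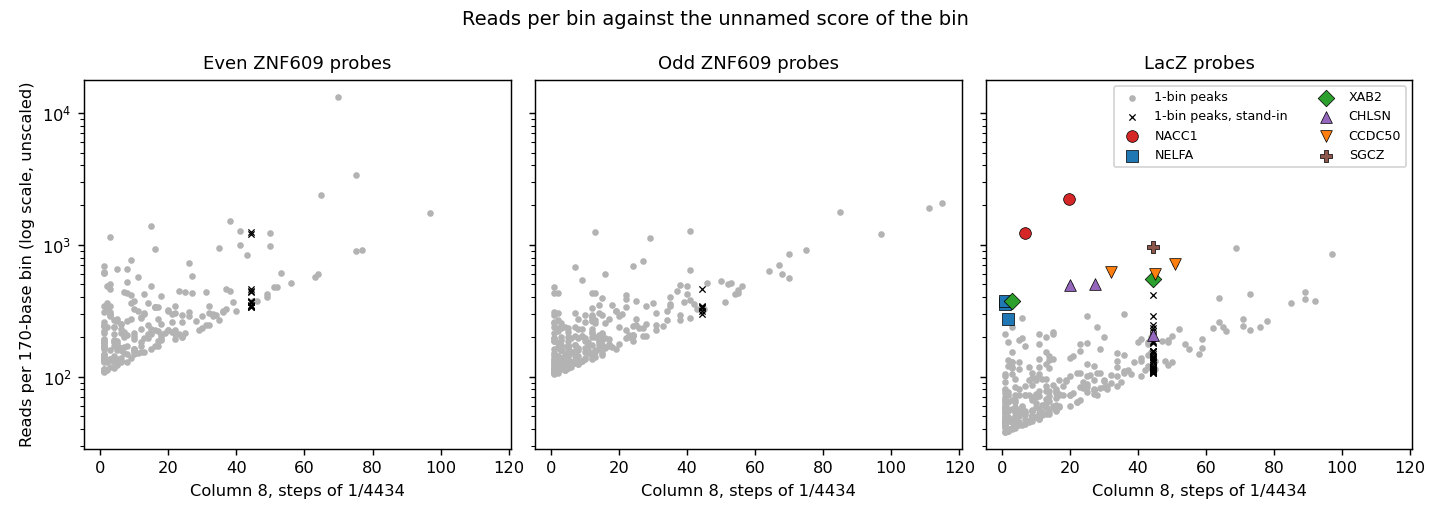
Reads per bin of 170 bases (log scale, unscaled) against column 8 in steps of 1/4434, with grey points for 1-bin peaks, crosses for 1-bin peaks at the fixed value, and coloured symbols for all peaks of the 6 genes, a wider peak being drawn at the mean of its bins. The lower edge of the points climbs with the score in each list, and the NACC1 peaks stand far above it, while the CHLSN peak of 206 reads lies close to it.

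Genes that neighbour the 6 or share their pathways were then counted, from lists made with earlier results of these data known. The nearest annotated gene on each side of each member had 0 even, 0 odd and 0 LacZ peaks. These include CAMSAP3, which encodes a protein of microtubule minus ends and lies 1220 bases from XAB2, and TRMT1, which lies 111 bases from NACC1. Member peaks were matched by overlap with the member's span, and neighbours were taken from genes outside that span. Over all annotated protein-coding genes, 1.54% had an even peak, 1.64% an odd peak and 2.22% a LacZ peak. A count of 0 among these neighbours is thus near the background.

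Of the 4 genes of the negative elongation factor, NELFA had LacZ peaks and NELFB had 1 even peak, of 408 reads per bin at rank 171 of 502, and NELFCD and NELFE had no peak. Of 12 other pausing and elongation factors, 1 had an even peak, 5 an odd peak and 2 a LacZ peak, against 1.54%, 1.64% and 2.22% of all annotated protein-coding genes. SUPT5H, the partner of SUPT4H1 in the factor DSIF, had 2 odd peaks, the higher of 634 reads per bin. AFF4, a scaffold of the super elongation complex, had 3 odd peaks, the highest of 472.5. SUPT6H had peaks in all 3 lists, with up to 158 even, 125 odd and 50 LacZ reads per bin, and PAF1 had up to 310 odd and 58.5 LacZ reads per bin. LARP7 had 1 odd peak of 127.

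Apart from XAB2, 13 annotated genes of its complex and of transcription-coupled repair were counted, of which 0 had an even peak, 0 an odd peak and 1 a LacZ peak. This was ZNF830, a partner of XAB2, with 129 reads per bin at rank 304 of 722. Of 9 BTB and related transcription regulators other than NACC1, 0 had an even peak, 1 an odd peak and 1 a LacZ peak. These were ZBTB7A, with up to 226.5 odd reads per bin, and ZBTB17, with 49 LacZ reads per bin. Of 14 sarcoglycan and dystrophin complex genes other than SGCZ, 0 had a peak in any list. Of 10 genes of ubiquitin and NF-kappaB signalling other than CCDC50, 0 had an even peak, 2 an odd peak and 0 a LacZ peak, the 2 being TNIP1 with up to 495 and IKBKB with up to 162 odd reads per bin. At the background shares just given, a count of 0 or 1 in lists of 9 to 14 genes is near the background. The odd counts of 5 of 12 pausing and elongation factors and 2 of these 10 signalling genes lay above the odd share of 1.64%. With the control probes, the LacZ count of 2 of the 12 pausing and elongation factors also lay above its share, 2.22%. Those lists were made with earlier results known, and the differences were not tested. The background shares cover all annotated protein-coding genes, whether or not RD cells express them.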

How the data were processed

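Per the labels' protocols, Qiazol and miRNeasy columns were used to extract RNA, and Ovation kits to make libraries. The submitters' processing notes name STAR 2.5.2b, bcl2fastq 2.0.2, Trimmomatic, Picard, SAMtools and bedtools, and the build GRCh38, without their roles. The caller Piranha appears in the names of the lists, with settings not stated. The deposited signal is reads per bin of 170 bases, the mean over joined bins, which came out whole per peak (tolerance 0.02). The deposited p-value is under 0.01 in each peak, with no word on correction. The deposited score of column 8 is unnamed.

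Peaks were matched to RefSeq gene spans (GRCh38.p14) by at least 1 shared base, strand ignored, counting each gene a peak overlaps. Positions count from 1. The members, lists and named genes were chosen with earlier results of these data known. Named genes were the 6 members, the next 5 by p-value and by reads, and members of fixed pathway lists that had a peak. The symbol CCDC16 matched no gene. Shares carry exact Clopper-Pearson 95% intervals (scipy 1.17.1). The matching was checked on simulated peaks. Alternatives were other p-value limits, overlaps, spans, ranks and list lengths.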

Additional observations from a re-analysis of the deposited data

How the results depend on the processing

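The 14 LacZ peaks of the 6 genes stayed with a p-value limit of 0.001 and with at least 50% of the peak inside the gene. They also stayed with spans widened by 1000 bases, with each peak given to 1 gene and with lists of equal length. The even and odd counts were 0 in each of these settings, but only wider spans could have added a peak. The members were chosen by p-value or reads, which favoured their LacZ peaks under a stricter p-value limit or a shorter list. Without peaks over bins at the fixed value of column 8, 10 of the 14 LacZ peaks were left, and SGCZ had 0. Spans widened by 10000 bases also met 0 even and odd peaks. NACC1 kept rank 1 by reads in the whole peak and without peaks over fixed-value bins. By p-value it shared rank 1, since 3 LacZ peaks had a p-value listed as 0, and p-value was used in choosing it. The best ranks of the other members moved, that of NELFA between 7 by p-value and 62 by reads in the whole peak. The share of LacZ reads, 9.35%, became 14.6% with the stricter p-value limit and 10.6% without fixed-value bins, as fewer other peaks stayed in the list, and the share of peaks was 1.94%. The median of column 8 over the member peaks was 0.00598, and 0.00451 over the 1-bin peaks alone. With each peak given to 1 gene, 302 genes had LacZ peaks alone, against 354. No replicate could be left out, since there was 1 library per probe set. No paired analysis was possible because each pull-down was a single library.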

Other observations

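Apart from the NELFA peak over microRNA 943, 3 LacZ peaks met annotated miRNA hairpins, those of MIR6752 (212.3 reads per bin, rank 134 of 722), MIR6802 (75.3, rank 508) and MIR6819 (247.5, rank 103). The even list had 1 such peak, over MIR6782 with 938.75 reads per bin. Of the 20 highest LacZ peaks, the 3 outside annotated genes ranked 2, 5 and 16, with 1604.5, 1001 and 620.7 reads per bin, and each was made wholly of bins at the fixed value of column 8.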
